A study of Homo sapiens with 3 samples.

Results

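The genes described here are 10 imprinted genes: PEG10, SGCE, PEG3, MEST, PLAGL1, GRB10, CDKN1C, H19, DLK1 and NDN. They were chosen by symbol from the array annotation, with earlier results of these arrays known, so their values are a description and carry no test. Of these, 8 have a probe set of their own, out of 18417 genes measured in that way. PEG3 and H19 lie only on probe sets that also name ZIM2 and RPS12, respectively, and therefore have no level of their own.

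RNA from 3 cultures of LoVo, a human cell line established from colorectal cancer, was hybridised to Affymetrix Human Gene 1.0 ST arrays, 1 per culture. LoVo parental is the unselected line. LoVo 8R- and LoVo 8R+ are LoVo-R8 cells, selected from the parental line by raising irinotecan, a topoisomerase I inhibitor, from 0.1 to 8 μM, and then grown without irinotecan (8R-) or with 8 μM irinotecan (8R+). All cultures grew in RPMI medium with fetal bovine serum. The labels of all 3 arrays carry the same treatment text, in which irinotecan was applied 24 h before RNA was purified. The sources used here do not say whether LoVo parental was included in that treatment, or whether LoVo-R8 is a single clone. Which LoVo-R8 array is which rests on the sample labels alone. The study names the 8R- array as the one it used, but the fold changes it prints for cell cycle arrest genes are those of the array labelled LoVo 8R+. The names LoVo 8R- and LoVo 8R+ below therefore mean the arrays so labelled, and every direction between them depends on those labels. With 1 array per culture, line, culture and array cannot be told apart, and no error or p-value can be computed.

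In genomic imprinting, mainly the copy of a gene inherited from one parent is transcribed, under a DNA methylation mark that is set in the germ line and differs between the copies. Many imprinted genes act on growth: paternally expressed genes such as PEG10, MEST and DLK1 often promote it, and maternally expressed genes such as CDKN1C and H19 often restrain it. Tumour cells can lose the mark. The arrays read total RNA of a gene and do not separate its parental copies. Fewer cells that transcribe a gene and less RNA per cell cannot be told apart either.

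Many of the marks lie at promoters rich in CG dinucleotides, and such sequences are shown for PLAGL1 and MEST, the genes furthest from LoVo parental among the 5 listed genes with a promoter in the RefSeq table (GRCh38.p14). Windows run from 250 bases before to 50 after a transcript start, 5′ to 3′, and CG dinucleotides are in capitals. For each gene the window with the most CG of its 5 windows is given.
PLAGL1, chr6:144008210-144008509, minus strand: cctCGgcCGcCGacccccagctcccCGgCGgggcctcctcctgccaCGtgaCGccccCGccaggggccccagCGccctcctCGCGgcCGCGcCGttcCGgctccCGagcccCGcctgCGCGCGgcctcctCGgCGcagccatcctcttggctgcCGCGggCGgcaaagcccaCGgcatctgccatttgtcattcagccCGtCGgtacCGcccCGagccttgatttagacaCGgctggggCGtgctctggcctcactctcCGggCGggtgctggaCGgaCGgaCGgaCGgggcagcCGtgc
MEST, chr7:130491835-130492134, plus strand: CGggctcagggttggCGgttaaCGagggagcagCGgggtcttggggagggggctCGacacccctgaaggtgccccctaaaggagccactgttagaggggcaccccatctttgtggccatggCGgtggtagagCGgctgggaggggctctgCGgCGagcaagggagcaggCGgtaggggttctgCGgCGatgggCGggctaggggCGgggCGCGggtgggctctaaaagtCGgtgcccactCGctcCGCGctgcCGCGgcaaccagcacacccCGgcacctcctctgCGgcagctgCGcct
The PLAGL1 window holds 39 CG, a count reached by 8.71% of all 35116 windows, and the MEST window holds 25, reached by 32.0%. The median window holds 14. Both windows were picked for their CG and the others were not, so the shares do not describe the promoters of a gene as a whole. The other PLAGL1 windows hold 31, 3, 3 and 2 CG, and those of MEST 22, 22, 16 and 13. ZFP57, a zinc finger protein that keeps imprints, binds the hexamer TGCCGC when it is methylated. Counted on both strands (TGCCGC or GCGGCA), the hexamer occurs 2 times in the PLAGL1 window and 3 times in the MEST window, where 1 adjoining pair of matches overlaps. It occurs in 16.7% of all windows, which were not picked for CG, and the hexamer itself contains a CG. The windows with the most CG of GRB10 and NDN hold 49 and 35 CG with 0 and 1 hexamers, and the only window of H19 holds 6 CG with 0 hexamers. These letters describe the windows, and no methylation was measured.

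At 2-fold, PEG10 and SGCE were the only genes among the 8 to differ between any pair of arrays. PEG10 encodes a retrotransposon-derived protein with gag and protease parts that the placenta requires. Its level was 7.21 on the log2 scale in LoVo parental, 6.70 in LoVo 8R- and 8.93 in LoVo 8R+. LoVo 8R+ was the high array, 3.30-fold above parental (difference 1.72 log2) and 4.71-fold above LoVo 8R- (2.24), whereas LoVo 8R- lay below parental by less than 2-fold (-0.51). Between the pair of LoVo-R8 arrays, PEG10 ranked 3 from the highest among 18417 genes and 1 among 16903 protein-coding genes. It ranked 108 from the highest in LoVo 8R+ against parental.

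SGCE, which encodes epsilon-sarcoglycan of the dystrophin-associated complex, lies next to PEG10 on chromosome 7, and both are expressed from the paternal copy. Its level was 8.28 in LoVo parental, 6.93 in LoVo 8R- and 8.13 in LoVo 8R+. Here LoVo 8R- was the low array, 2.55-fold below parental (-1.35), and LoVo 8R+ was close to parental (-0.15). LoVo 8R+ exceeded LoVo 8R- by 2.30-fold (1.20), at rank 50 from the highest of all genes. Thus PEG10 and SGCE were both higher in LoVo 8R+ than in LoVo 8R-. Both lay below parental in LoVo 8R-. In LoVo 8R+, PEG10 lay above parental, whereas SGCE was close to it.

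**Figure D1:**
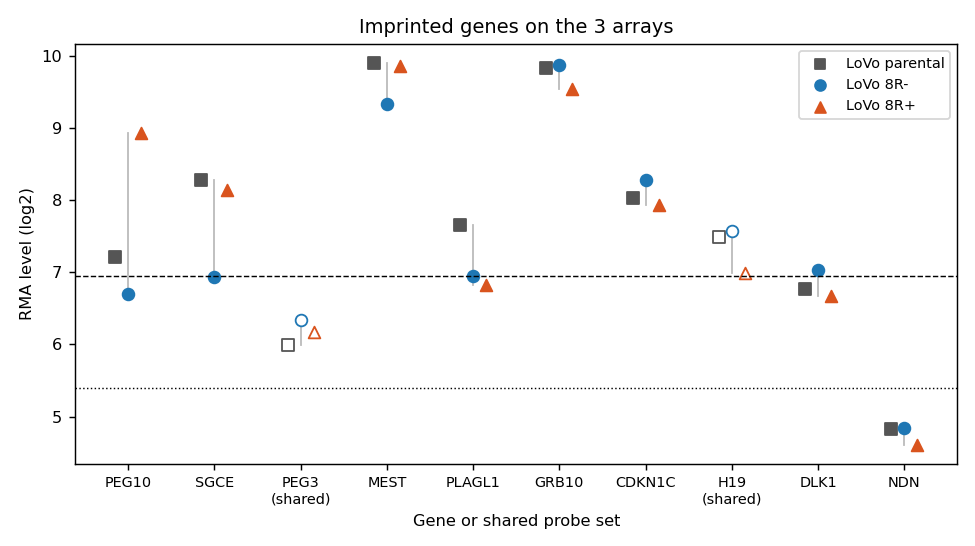
RMA levels (log2, vertical axis) of the 10 imprinted genes (horizontal axis), with 1 point per array: squares LoVo parental, circles LoVo 8R-, triangles LoVo 8R+. Open symbols are the probe sets shared with another gene, the dashed and dotted lines mark the mean over the arrays of their median and first quartile, and grey lines join the lowest and highest array of a gene. PEG10 spans 6.70 to 8.93 and SGCE 6.93 to 8.28, and levels of different genes are not comparable.

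The remaining paternally expressed genes gave smaller differences. MEST, an alpha/beta hydrolase of the endoplasmic reticulum, measured 9.90 in LoVo parental, 9.33 in LoVo 8R- and 9.85 in LoVo 8R+. As for SGCE, LoVo 8R- was the low array (-0.56) and LoVo 8R+ was near parental (-0.05), with 0.51 between them. PLAGL1, a zinc finger transcription factor that restrains cell division, measured 7.66, 6.95 and 6.82 in the same order. It was lower on both LoVo-R8 arrays, by less than 2-fold (-0.71 and -0.83), and they differed from each other by -0.13. DLK1, a transmembrane protein related to Notch ligands, measured 6.77, 7.03 and 6.67. Its differences were 0.27 in LoVo 8R- and -0.10 in LoVo 8R+. NDN, which encodes necdin, a growth suppressor of neurons, measured 4.83, 4.85 and 4.61. All of these NDN values lie below the first quartile of their array (5.39 to 5.42), where low transcription cannot be told from background.

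CDKN1C, which is maternally expressed, and GRB10, whose imprinting depends on tissue, did not reach 2-fold between any arrays. GRB10, an adaptor that inhibits the insulin and IGF receptors, measured 9.82 in LoVo parental, 9.87 in LoVo 8R- and 9.54 in LoVo 8R+. CDKN1C, the cyclin-dependent kinase inhibitor p57, measured 8.02, 8.27 and 7.93. Both were lowest in LoVo 8R+, at -0.28 and -0.09 from parental. The probe set naming H19, a maternally expressed long non-coding RNA, together with RPS12 measured 7.49, 7.57 and 6.99, and was also lowest in LoVo 8R+ (-0.50). The probe set naming ZIM2 together with PEG3, a paternally expressed zinc finger gene, measured 5.99, 6.34 and 6.17, below the array median on all arrays. The signals of the genes that share these probe sets cannot be separated.

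By count, 1 of the 8 genes (12.5%) was at least 2-fold lower in LoVo 8R- than in parental, against 2.78% of all genes, and 0 were higher, against 1.64%. In LoVo 8R+, 1 of 8 was higher than parental by this measure, against 2.25% of all genes, and 0 were lower, against 2.30%. Between LoVo 8R+ and LoVo 8R-, 2 of 8 were higher (25%), against 0.527%, and 0 were lower, against 0.114%. The genes were chosen with these values known, so nothing is read from the shares. Both comparisons with parental use the same parental array. The median difference of the 8 genes was -0.25 in LoVo 8R-, -0.12 in LoVo 8R+ and -0.18 between the LoVo-R8 arrays, where the median of all genes was 0 in each. Between the LoVo-R8 arrays, PEG10, SGCE and MEST were higher in LoVo 8R+, and GRB10, CDKN1C, DLK1, NDN and PLAGL1 were lower, by -0.37 to -0.13.

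**Figure D2:**
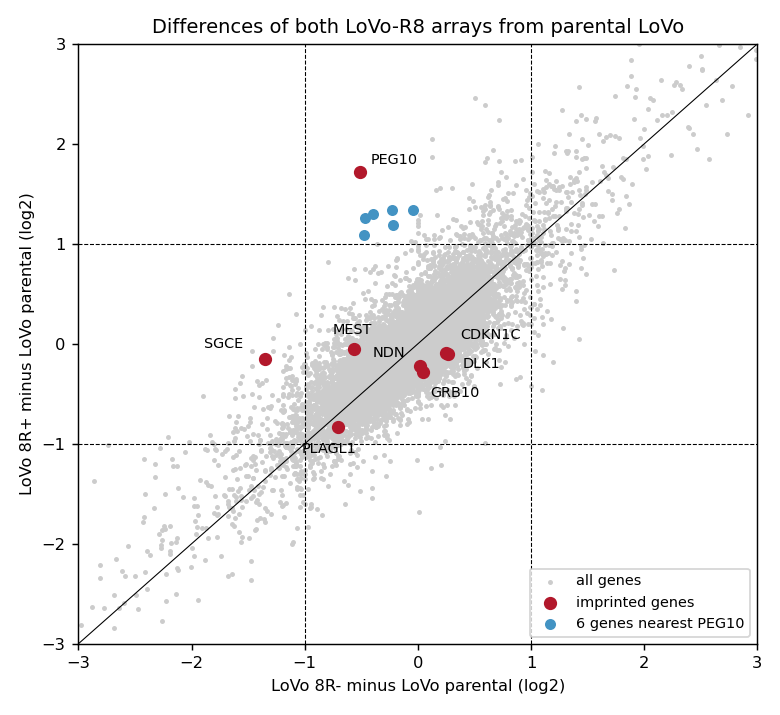
Difference of LoVo 8R- from LoVo parental (log2, horizontal axis) against that of LoVo 8R+ (log2, vertical axis) for 18417 genes, 61 of which lie outside the axes. The axes share the parental array, dashed lines mark 2-fold and the diagonal marks equal differences. PEG10 (-0.51, 1.72) and SGCE (-1.35, -0.15) lie above the diagonal, and the 6 genes nearest PEG10 are small RNAs or a small RNA pseudogene.

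The genes whose pair of differences from parental was most like that of PEG10, by Euclidean distance on the log2 scale among 9208 brighter genes over 3 arrays, were not imprinted genes. They were SNORD13P3 (distance 0.44), SNORA3A (0.46), SNORD35A (0.48), SNORA24 (0.61), SNORD13 (0.61) and RNU4ATAC (0.64). SNORA3A, a guide RNA for pseudouridylation of ribosomal RNA, measured 10.99 in LoVo parental, 10.52 in LoVo 8R- and 12.26 in LoVo 8R+. Past 2-fold in favour of LoVo 8R+ over LoVo 8R- were 97 genes, of which 67 were protein-coding (of 16903 measured), 18 were snoRNAs (of 175) and 7 were snRNAs (of 20). Most measured snoRNAs and snRNAs did not reach 2-fold. Those named were picked for their nearness to PEG10, and their part in its difference was not tested. After PEG10 the highest protein-coding difference was that of CCNE2, cyclin E2, at 2.10, and this gene was named after its value had been seen. Unlike PEG10, CCNE2 remained below parental in LoVo 8R+ (-1.25).

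The genes beside PEG10 and SGCE differed less. Of the 10 measured neighbours of PEG10, SGCE was the only one at 2-fold in any comparison, and the neighbours' medians were 0.04 in LoVo 8R-, 0.00 in LoVo 8R+ and 0.03 between the LoVo-R8 arrays. PPP1R9A, a neuronal actin-binding protein gene described as maternally expressed in some tissues, lies next to PEG10 on its other side and measured 8.69, 8.98 and 8.72 in LoVo parental, LoVo 8R- and LoVo 8R+. CASD1, a sialic acid O-acetyltransferase gene next to SGCE, measured 8.97, 9.21 and 9.12. The largest of the other neighbours was PON3, a paraoxonase gene, at 8.61, 9.01 and 9.54, so that it was 0.92 above parental in LoVo 8R+. BET1, a vesicle transport gene, was lower on both LoVo-R8 arrays (-0.65 and -0.43), and PON2 was 0.48 higher in LoVo 8R+. GNGT1, GNG11, PON1 and ASB4 lay near or below the first quartile, and COL1A2 differed by 0.00 and -0.03.

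**Figure D3:**
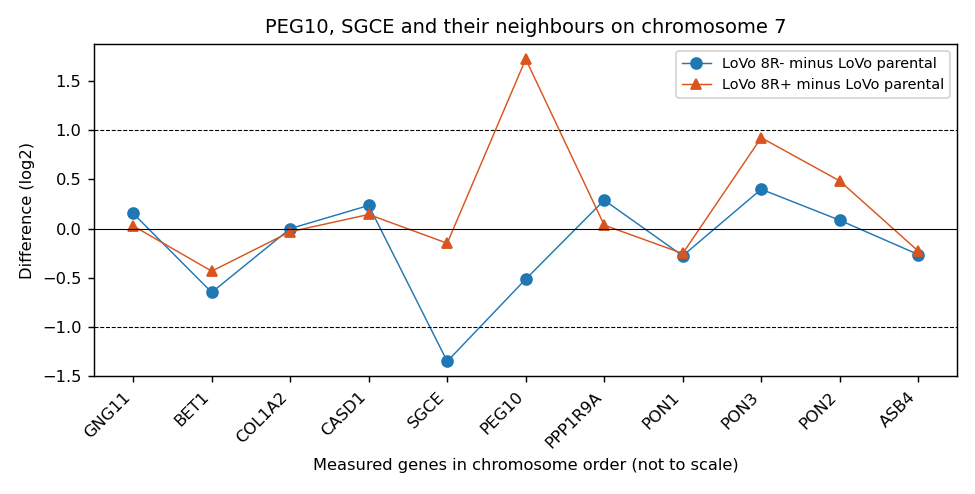
Difference from LoVo parental (log2, vertical axis) of PEG10, SGCE and the measured genes around them in chromosome order (horizontal axis, not to scale), circles LoVo 8R- and triangles LoVo 8R+. Dashed lines mark 2-fold. SGCE is the only gene past it in LoVo 8R- (-1.35) and PEG10 the only one in LoVo 8R+ (1.72).

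In what follows, a pair of differences gives LoVo 8R- and then LoVo 8R+ against parental, and 3 levels run in the order LoVo parental, LoVo 8R-, LoVo 8R+. At PLAGL1 on chromosome 6, 7 of the 10 measured neighbours were below parental on both LoVo-R8 arrays, 1 of them by 2-fold or more, and 3 were not. Both differences use the same parental array, and the share of all genes below it on both arrays is not given here. Nothing about the region is therefore read from this count. The neighbours had a median of -0.44 in LoVo 8R-, against -0.40 for LoVo 8R+. The neighbour past 2-fold was UTRN, the third measured gene on one side, which encodes the dystrophin relative utrophin and measured 8.48, 5.40 and 5.66 on the 3 arrays (-3.08 and -2.82). Around MEST the neighbours' medians were 0.18 and 0.11, around GRB10 0 and 0, around CDKN1C -0.06 and -0.06, around DLK1 0.09 and 0, and around NDN 0 and -0.13. Of the neighbours of these 5 genes only a pair passed 2-fold from parental, named after their values were seen. They were MIR29A beside MEST (1.07 in LoVo 8R+) and WARS1 beside DLK1 (-1.24 in LoVo 8R+).

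Imprinted genes beyond the 10 were read from 3 further lists, also drawn up with earlier results known. Of 61 such genes 45 were measured, and ANO1, lower on both LoVo-R8 arrays, was the only one at 2-fold. Among all genes, 2.78% on the array labelled LoVo 8R- and 2.30% on that labelled LoVo 8R+ were lower than parental by this measure. None of the 45 was higher, against 1.64% and 2.25% of all genes, respectively. Nothing about imprinted genes is therefore read from this count. ANO1, a calcium-activated chloride channel whose imprinting depends on tissue, measured 8.82, 6.84 and 7.20 (-1.98 and -1.62). Among 11 paternally expressed genes the median was 0.16 for LoVo 8R-, against -0.03 for LoVo 8R+. ZDBF2 gave -0.41 and -0.83, L3MBTL1 0.59 and 0.41, and MAGEL2, a neighbour of NDN, 0.16 and -0.36. Among 12 genes listed as maternally expressed, some of them, such as PPP1R9A, only in certain tissues, the medians were 0.02 and -0.02. ZNF597 was lower by less than 2-fold on both arrays (-0.76 and -0.75), CPA4 gave 0.51 and 0.45, and UBE3A -0.26 and -0.46. MEG3, the non-coding partner of DLK1, measured 6.36, 6.54 and 6.34. The 22 genes with variable imprinting or inside imprinted clusters had medians of 0.04 and 0.00. IGF2, the partner of H19, was not analysed here.

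Most genes that set or keep imprints differed little. Of 26 measured, 1 was at least 2-fold lower in LoVo 8R-, against 2.78% of all genes, and 0 differed at 2-fold in LoVo 8R+. Between the LoVo-R8 arrays 1 was higher in LoVo 8R+, against 0.527% of all genes. The first was UHRF1, which brings the maintenance methyltransferase to newly copied DNA, at 8.77 in LoVo parental, 7.29 in LoVo 8R- and 8.03 in LoVo 8R+. HELLS, a chromatin remodeller needed for DNA methylation, was the second, at 7.78, 7.04 and 8.15. DNMT1, the maintenance methyltransferase itself, measured 9.67, 9.11 and 9.54, and TRIM28, the corepressor that ZFP57 recruits, 10.85, 10.13 and 10.60. These 4 were named for their size of difference, and LoVo 8R- was the low array for each. Over all 26, LoVo 8R- was the lowest array for 8 and the highest for 8. Over the 8 listed genes it was the lowest for 3 (PEG10, SGCE and MEST) and the highest for 4 (GRB10, CDKN1C, DLK1 and NDN). Over all 18417 genes it was the lowest for 4303 and the highest for 5963, so nothing is read from these counts. ZFP57 stayed between 5.84 and 5.88, below the array median on all arrays, a dim level that may be background.

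**Figure D4:**
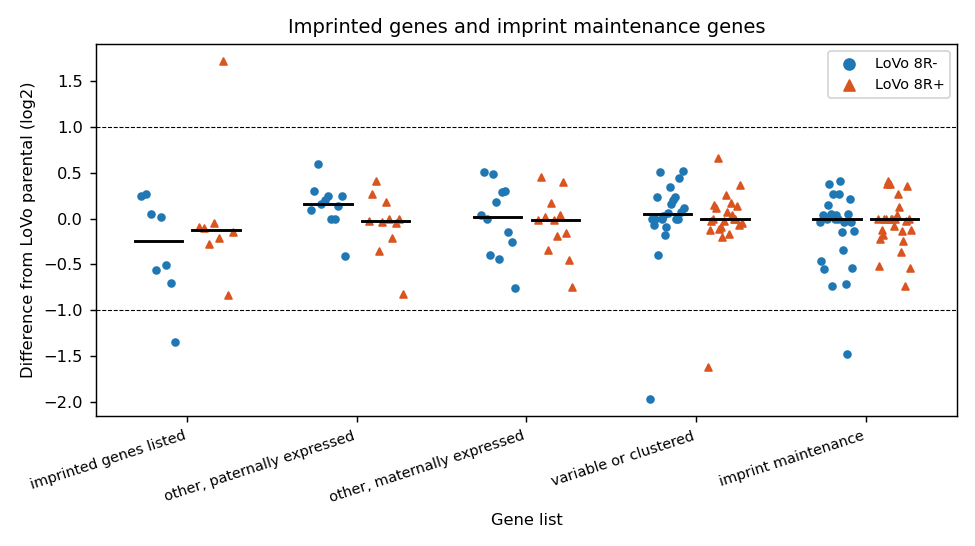
Difference from LoVo parental (log2, vertical axis) of the 8 imprinted genes, 3 lists of other imprinted genes and the imprint maintenance genes (horizontal axis), 1 point per gene, circles LoVo 8R- and triangles LoVo 8R+. Black bars are medians and dashed lines mark 2-fold. Points past 2-fold are SGCE, ANO1 and UHRF1 in LoVo 8R-, and PEG10 and ANO1 in LoVo 8R+.

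The families and partners of the listed genes were read in the same way. Their lists were also drawn up with earlier results known, so nothing is read from the counts. None of the 19 measured retrotransposon-derived gag genes other than PEG10 differed at 2-fold. PNMA2 came nearest, at 7.10, 6.31 and 7.24 in LoVo parental, LoVo 8R- and LoVo 8R+, followed by RTL8A (-0.73 and -0.52). For SGCE, 10 partners in the sarcoglycan and dystrophin complexes were measured, with medians of -0.01 and -0.01. In LoVo 8R-, 2 were at least 2-fold lower, against 2.78% of all genes, and in LoVo 8R+ 3 were, against 2.30%. Besides UTRN these were SSPN, sarcospan, at 8.17, 6.53 and 6.72, and SNTB1, a syntrophin, at 9.28, 8.33 and 7.64, which passed 2-fold only in LoVo 8R+. SGCB, another sarcoglycan, differed by -0.12 and -0.02. SNTB2 (0.39 and 0.43) and DTNB (0.21 and 0.39) were higher on both arrays, by less than 2-fold. SGCZ, DMD and DTNA lay below the first quartile on all arrays and may be background. In LoVo 8R+, where SGCE was near parental, UTRN, SSPN and SNTB1 were more than 2-fold below parental.

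For GRB10, 22 insulin and IGF signalling genes were measured, with medians of -0.04 and -0.02. GRB14, an adaptor of the same family, was higher on both arrays (7.16 in LoVo parental, 8.41 in LoVo 8R- and 8.70 in LoVo 8R+). IGF2BP1, an IGF2 mRNA-binding protein, was lower on both (8.26, 6.35 and 6.42). IRS1 gave 0.90 and 0.61, and PIK3R1 gave -0.82 and -0.33. For CDKN1C, 5 other inhibitors of cyclin-dependent kinases were measured. In the array labelled LoVo 8R-, 2 were at least 2-fold higher, against 1.64% of all genes. In that labelled LoVo 8R+ 0 were, against 2.25%, although CDKN1A, at 0.95, lay just under 2-fold. CDKN1A, the p53 target p21, measured 9.22, 10.67 and 10.18, and CDKN2B, p15, measured 8.34, 9.42 and 8.73. CDKN2A gave 0.51 and 0.97, also just under 2-fold in LoVo 8R+. For DLK1, 10 Notch ligand and receptor genes had 1 member at least 2-fold higher and 2 lower on each array. Of all genes, 1.64% and 2.25% were higher in LoVo 8R- and LoVo 8R+, and 2.78% and 2.30% were lower. JAG1 measured 9.63, 10.69 and 10.77, JAG2 9.30, 8.09 and 8.17, and DLL4 7.88, 6.83 and 6.51.

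The 8 hydrolase and receptor genes related to MEST had 1 member at least 2-fold lower in LoVo 8R-, against 2.78% of all genes. In LoVo 8R+ 1 was higher and 1 lower, against 2.25% and 2.30% of all genes. ABHD3 gave -1.11 and -0.32, ABHD5 -0.74 and -1.17, and EPHX2 0.38 and 1.18. PLAG1 and PLAGL2, the relatives of PLAGL1, differed by 0.01 and -0.36 in LoVo 8R- and by 0.32 and -0.02 in LoVo 8R+. None of the 9 measured genes read beside NDN reached 2-fold. USP7 (-0.71 and -0.40) and TRIM27 (-0.67 and -0.59), which are not themselves genes of the necdin type, were furthest. None of the 3 measured partners of PEG3 did so either, with BAX at 0.34 and 0.05.

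Markers of the cell type were mixed. Of 12 colon epithelium markers 3 were at least 2-fold lower on both LoVo-R8 arrays. They were CDH1 (-3.06 and -2.26), CEACAM5 (-2.37 and -2.11) and LGALS4 (-2.27 and -2.01). GPA33 was higher in LoVo 8R+ (1.39). Of all genes, 2.78% were lower by this measure in LoVo 8R- and 2.30% in LoVo 8R+, where 2.25% were higher. EPCAM measured 12.33, 11.90 and 12.03, and KRT8 13.27, 12.73 and 12.77. The measured markers of fibroblasts (6), leukocytes (3) and endothelium (3) differed by no more than 0.21 from parental, and PTPRC, DCN and PECAM1 lay below the first quartile. The fibroblast marker COL1A1 lay above the array median at 7.49, 7.66 and 7.57, and COL3A1 measured 6.90, 7.03 and 6.85.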

How the data were processed

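Total RNA (300 ng per culture) was hybridised to Affymetrix Human Gene 1.0 ST arrays. The deposited values are log2 levels that the authors made by RMA (background correction, quantile normalization and median polish), for which Affymetrix Expression Console 1.1 is named in the submitters' processing notes. The table holds 33297 probe sets with no detection filter, so a dim level may be background. The number of arrays limits the precision.

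Probe sets were named by the platform annotation, in which 19460 name 1 gene, 1754 several and 12083 none. Where several single-gene probe sets named a gene, the brightest by its 3-array mean was used, giving 18417 genes. Gene order and class came from the RefSeq annotation of GRCh38.p14. Differences were subtractions of log2 levels, counted at 2-fold, with no test because no condition has a replicate. The subtraction and the counts were tested on simulated data. Python 3.11.15, numpy 2.4.6, pandas 2.3.3, statsmodels 0.14.6 and matplotlib 3.10.9 were used.

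The listed genes, the other gene lists and the tests were chosen with earlier results of these data known. Named genes were the 10 listed genes, up to 4 of each list with the largest difference from parental, 5 measured neighbours on each side of a listed gene at 2-fold, and the 6 genes nearest PEG10 among those at or above the median gene. Genes named beyond this, such as those described at the other imprinted loci, further list members given as values, and CCNE2, were chosen after their values were seen. Alternatives were thresholds of 1.5-fold and 3-fold, median centring, loess (span 0.3, 3 iterations), repeated quantile normalization, dim filters at the 50th and 25th percentiles, the mean over probe sets of a gene, use of probe sets naming several genes, and the mean of both LoVo-R8 arrays.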

Additional observations from a re-analysis of the deposited data

Results flagged for a closer look

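PEG10 and HELLS lay on opposite sides of LoVo parental on the pair of LoVo-R8 arrays. PEG10 differed from parental by -0.51 on the array labelled LoVo 8R- but by 1.72 on that labelled LoVo 8R+, a gap of 2.24 on the log2 scale. HELLS differed by -0.74 and 0.37, a gap of 1.11. With 1 array per culture neither gap was tested.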

How the results depend on the processing

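Of 216 differences of the listed genes taken under the alternatives, 211 kept their side of the threshold. Much of this count was fixed in advance and does not measure robustness. Each listed gene counted has a single probe set of its own. The mean over probe sets and the use of shared probe sets therefore left its values unchanged. The dim filters could only drop a gene. At 1.5-fold, 2 listed genes were counted in LoVo 8R- (SGCE and PLAGL1) and 2 in LoVo 8R+ (PEG10 and PLAGL1), and the other imprinted genes counted were 3 in LoVo 8R- and 4 in LoVo 8R+. That threshold takes in 13.2% and 13.0% of all genes, respectively. At 3-fold, 0 listed genes were counted in LoVo 8R-, and 1, PEG10, between LoVo 8R+ and LoVo 8R-, against 1.46% and 0.0760% of all genes. With the mean of both LoVo-R8 arrays 0 listed genes were counted, against 4.12% of all genes, SGCE was at -0.75, and PEG10, at -0.51 in LoVo 8R- alone, was at 0.60. Median centring, loess and repeated quantile normalization left PEG10 in LoVo 8R+ between 1.72 and 1.73 above parental and SGCE in LoVo 8R- between -1.36 and -1.33. No paired analysis was possible because each condition has 1 array. Without replicates, differences cannot be set against the spread between cultures, and probe sets below the first quartile, such as that of NDN, may carry background only.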

Other observations

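Small RNAs of imprinted clusters were also on the arrays. Of the SNORD116 family beside NDN 20 were measured, of SNORD115 20, and of SNORD113 and SNORD114, which lie downstream of DLK1 and MEG3, 2 and 4. None differed at 2-fold between any arrays, and all but 1 lay below the first quartile on all 3 arrays. The exception is a member of the SNORD116 family, and the highest level in that family was 5.97. These families hold near-identical copies, so single members are uncertain.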
